A study of Homo sapiens with 18 samples.

Results

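CYP1B1 encodes a cytochrome P450 that hydroxylates estrogens and polycyclic aromatic compounds, and it is a classical target gene of AHR, the aryl hydrocarbon receptor. AHR is a ligand-activated transcription factor of the bHLH-PAS family, which waits in the cytosol with HSP90 and the cochaperone p23 (encoded by PTGES3), moves to the nucleus when a ligand binds, pairs with ARNT and binds xenobiotic response elements (XREs) in DNA. Its targets include the P450 genes CYP1A1 and CYP1B1, the quinone reductase gene NQO1, and the feedback genes AHRR and TIPARP, whose products restrain AHR by competing for ARNT and by ADP-ribosylation. AHR and the glucocorticoid receptor (GR) share HSP90 and p23 as chaperones. The counts of these 7 genes (CYP1B1, AHR, ARNT, AHRR, TIPARP, CYP1A1 and NQO1) were followed here across all conditions of the study. The genes were listed by their place in the pathway, among 60642 gene symbols counted. They were chosen with earlier results of these data known, so their p-values are not those of a list fixed in advance. CYP1B1 was in addition selected on a value measured in these libraries, a larger fall with Dex in siPRMT5 than in siNS cells, so that difference, and the comparisons built on the same libraries, are given for CYP1B1 as a description without a test.

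MDA-MB-231 is an established human triple-negative breast cancer cell line of mesenchymal type. Cells were transfected with 25 nM of a SMART-pool siRNA against PRMT5, an arginine methyltransferase (siPRMT5), against HP1γ, a chromatin protein encoded by CBX3 (siHP1γ), or with a non-specific sequence (siNS) for 48 h, and received 100 nM dexamethasone (Dex), a synthetic glucocorticoid that activates GR, or the vehicle ethanol (Eth) for 8 h. No AHR ligand was added in any condition. This gave 6 conditions (siNS Eth, siNS Dex, siHP1γ Eth, siHP1γ Dex, siPRMT5 Eth and siPRMT5 Dex) with 3 biological replicates each, thus 18 RNA-seq libraries with 8682992 to 12472381 counted reads. A transient siRNA pool leaves part of its target and can have other targets, and all cells come from 1 line.

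The libraries carried the markers of the line and of the depletions. VIM (59421 to 87947 counts), CD44 and AXL were present in every library, with AXL at 221 (Eth) and 189 (Dex) CPM in siPRMT5 against 963 and 830 CPM in siNS cells, and ESR1, PGR and CDH1 had 0 to 2 counts, whereas the epithelial gene EPCAM had 80 to 155 counts. PRMT5 mRNA was 2.96% of siNS in siPRMT5 cells with Eth and 4.42% with Dex, and it was 7.41 ± 1.17 CPM (SD, n = 3) with Eth and 10.5 ± 1.07 CPM with Dex in those cells. CBX3 mRNA was 3.89% (Eth) and 5.998% (Dex) of siNS in siHP1γ cells. Replicate 1 of siHP1γ Dex stood furthest from its replicates (chi-square per degree of freedom 12.4 and 7.41 against the other two, with at most 7.27 in the other pairs of all conditions). Levels are given as CPM, the count of a gene divided by the scaled total of its library (edgeR's TMM factors), so that the values of 1 gene can be compared between libraries. All 7 genes passed the filter on low counts and were tested among 15298 genes in one edgeR quasi-likelihood fit of the 18 libraries with Benjamini-Hochberg adjustment. A Dex response was called at an adjusted p under 0.01 with at least a 1.5-fold change, and all other comparisons at an adjusted p under 0.05.

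CYP1B1 lies on chromosome 2 of hg38 (chr2:38066973-38109902, minus strand). In siNS Eth, its level was 24.5, 21.8 and 20.1 CPM in replicates 1 to 3, and with Dex it was 13.9, 14.3 and 13.5 CPM. In siPRMT5 Eth it was 51.5, 50.5 and 69.1 CPM, the highest values of the 18 libraries, and with Dex it was 14.3, 13.4 and 12.6 CPM. PRMT5-depleted cells thus held more CYP1B1 mRNA than siNS cells without Dex, with no overlap of libraries, and overlapped them with Dex. The means ± SD were 57.0 ± 10.5 CPM in siPRMT5 Eth and 13.4 ± 0.855 CPM in siPRMT5 Dex (n = 3). As a description of the values that chose the gene, the fall with Dex was 4.25-fold in siPRMT5 cells (log2 fold change -2.09, standard error (SE) 0.130) and 1.59-fold in siNS cells (-0.67, standard error 0.139). The difference between these responses was -1.42 on the log2 scale (standard error 0.191), and 64 of the 15298 genes had a lower value. The level after PRMT5 depletion was 2.58-fold that of siNS without Dex (log2 fold change 1.37). With Dex it was 96.8% of siNS (log2 fold change -0.05, standard error 0.146).

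**Figure D1:**
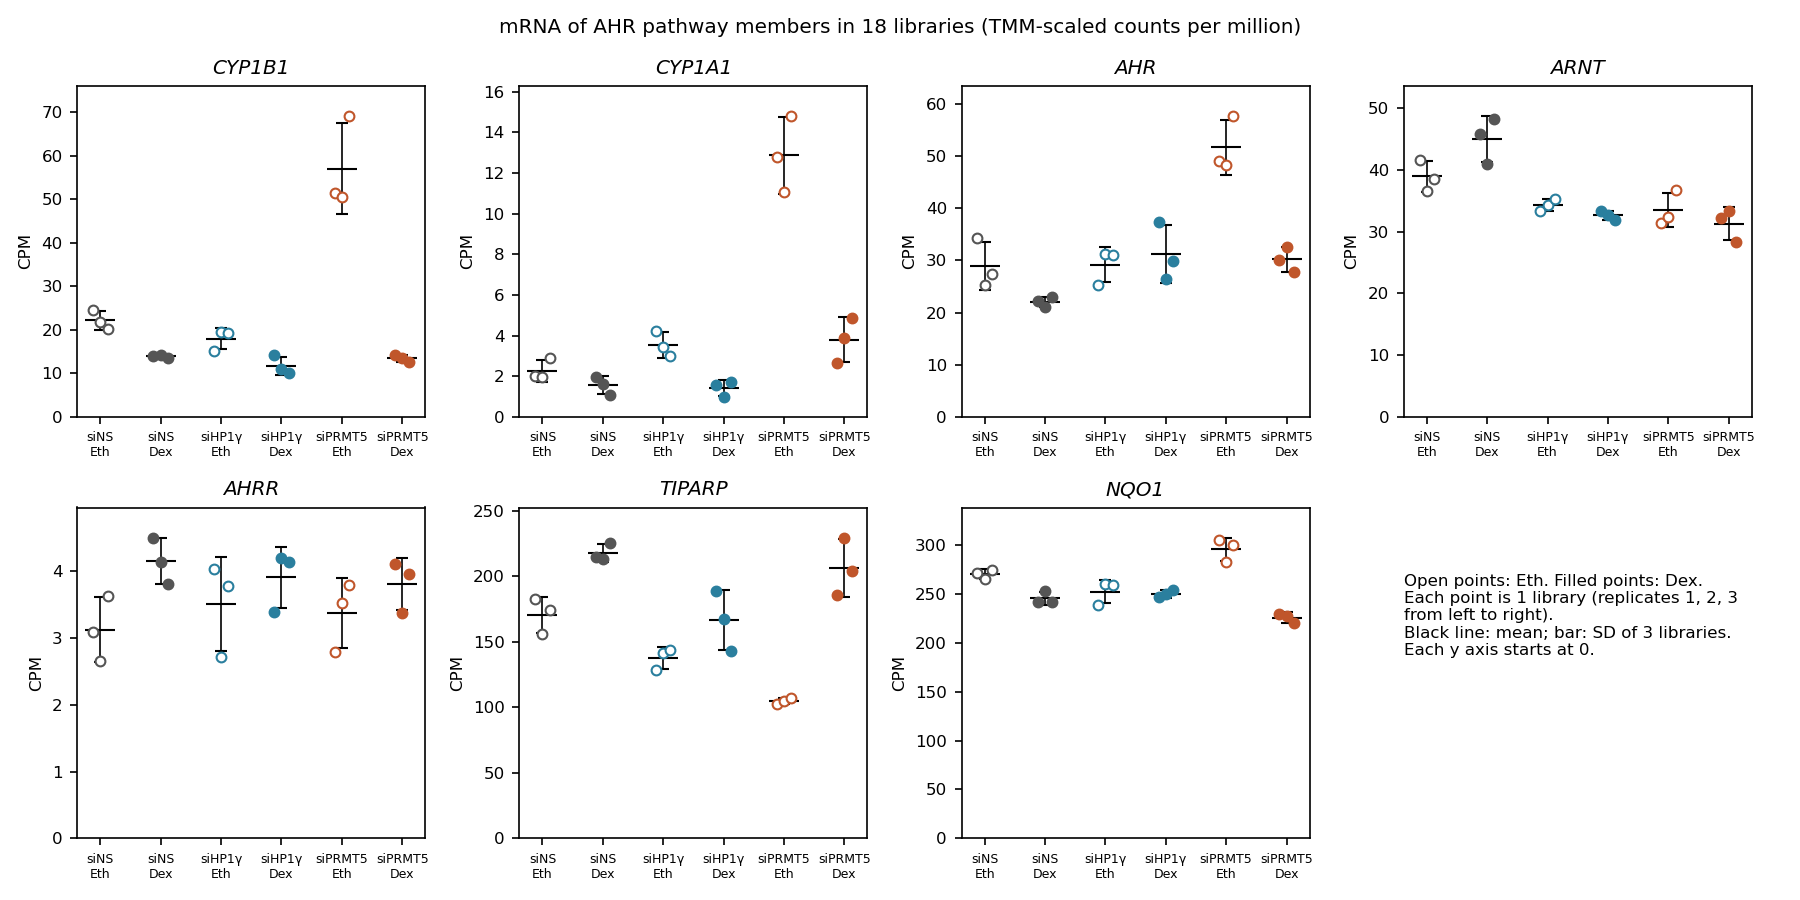
Level of each gene in CPM (y axis, from 0) in the 6 conditions (x axis). Each point is 1 library, open with Eth and filled with Dex, and the black line and bar are the mean and SD of 3 libraries. CYP1B1, CYP1A1 and AHR are highest in siPRMT5 Eth, where TIPARP is lowest (102 to 107 CPM).

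HP1γ-depleted cells share no library with the contrast that chose CYP1B1, so their Dex response could be tested. There, CYP1B1 was at 15.2, 19.45 and 19.2 CPM with Eth and at 14.1, 10.95 and 10.15 CPM with Dex. All Dex libraries were lower, with replicate 1 of each treatment nearest to the other treatment. CYP1B1 fell 1.52-fold with Dex in siHP1γ cells (log2 fold change -0.61, SE 0.143, adjusted p = 0.00832 in edgeR), where 1.67% of all genes tested were called in either direction. This call stands near its limits, since it was lost in 9 of the 18 fits that left out 1 library, where the adjusted p rose to 0.0541 without siHP1γ Eth replicate 2. It was 0.0534 without siHP1γ Eth replicate 3, 0.0437 without siHP1γ Dex replicate 2 and 0.0474 without siHP1γ Dex replicate 3, and 0.0103 to 0.0122 in the other 5, each without 1 siNS library, with log2 fold changes of -0.77 to -0.51 over all 18 fits. Without siHP1γ Dex replicate 1, the library that stood apart, the fall was -0.77 (adjusted p = 0.00159).

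The order of the CYP1B1 levels was siPRMT5 Eth (57.0 CPM), siNS Eth (22.1 ± 2.2 CPM), siHP1γ Eth (17.9 ± 2.402 CPM), siNS Dex (13.9 ± 0.380 CPM), siPRMT5 Dex (13.4 CPM) and siHP1γ Dex (11.7 ± 2.08 CPM). Neighbours at the top of this order did not overlap, but siNS Eth and siHP1γ Eth were separated only by 20.1 against 19.45 CPM, and siHP1γ Eth and siNS Dex by 15.2 against 14.3 CPM. The last 3 conditions overlapped each other. In siHP1γ against siNS cells the log2 difference of CYP1B1 was -0.30 with Eth (standard error 0.135) and -0.23 with Dex (standard error 0.147). These values are a description without a test, since the siNS libraries entered the choice of the gene.

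CYP1B1 shares 783 of its 6024 exonic bases with 3 other genes in GENCODE 44, 678 of them with the antisense gene CYP1B1-AS1. The strand setting of the counting is not stated in the sources used here, so reads of these stretches cannot be assigned with certainty. CYP1B1-AS1 had 3 to 16 counts per library and 1.18 ± 0.205 CPM in siPRMT5 Eth against 1.26 ± 0.380 CPM in siNS Eth. RMDN2, the neighbour on the other strand, had 9.94 ± 0.956 CPM in siPRMT5 Eth and 6.06 ± 0.188 CPM in siNS Eth. Its part in the CYP1B1 count was not tested.

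CYP1A1 encodes the P450 enzyme that is the standard readout of AHR activity, and it was a low-abundance mRNA here with 10 to 148 counts per library (chr15:74719542-74725536, minus strand, no overlapping gene). In siNS cells it was at 1.99, 1.94 and 2.90 CPM with Eth and at 1.94, 1.63 and 1.09 CPM with Dex. In siPRMT5 cells it was at 12.8, 11.04 and 14.8 CPM with Eth and at 2.64, 3.86 and 4.87 CPM with Dex. Every siPRMT5 library with Eth was above all other libraries, and the siPRMT5 Dex libraries were still above those of siNS Dex. CYP1A1 was 5.645-fold higher after PRMT5 depletion without Dex (log2 fold change 2.50, SE 0.217, adjusted p = 8.56e-10 in edgeR) and 2.405-fold higher with Dex (1.27 ± 0.275, standard error, adjusted p = 0.00056).

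Dex lowered CYP1A1 mRNA in both depleted cells. The fall was 3.43-fold in siPRMT5 cells (log2 fold change -1.78, SE 0.194, adjusted p = 1.07e-07 in edgeR) and 2.46-fold in siHP1γ cells (-1.30, standard error 0.279, adjusted p = 0.00375). The siHP1γ libraries were at 4.24, 3.46 and 2.97 CPM with Eth and at 1.57, 0.978 and 1.69 CPM with Dex, and did not overlap. This call in siHP1γ cells was lost without siHP1γ Eth replicate 1 (adjusted p = 0.0338), siHP1γ Eth replicate 2 (0.0131) or siHP1γ Dex replicate 2 (0.0302). In siNS cells the libraries overlapped and the log2 fold change was -0.55 (95% interval -1.19 to 0.09, adjusted p = 0.308). The difference of the Dex response from siNS cells was -1.23 for siPRMT5 (95% interval -2.00 to -0.46, adjusted p = 0.0646) and -0.75 for siHP1γ (-1.62 to 0.12, adjusted p = 0.372), so neither passed the threshold of 0.05. With no filter on low counts, the former had an adjusted p of 0.0256, and with DESeq2 0.0457.

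AHR mRNA itself was higher after PRMT5 depletion (chr7:16916359-17346152, plus strand). It was at 34.2, 25.3 and 27.3 CPM in siNS Eth and at 49.15, 48.25 and 57.7 CPM in siPRMT5 Eth, a 1.79-fold increase with no overlap (log2 fold change 0.84, SE 0.121, adjusted p = 3.38e-06 in edgeR). With Dex, the siNS libraries were at 22.3, 21.0 and 22.9 CPM, those of siPRMT5 at 30.1, 32.6 and 27.8 CPM and those of siHP1γ at 37.3, 26.4 and 29.8 CPM. Both depletions thus gave more AHR mRNA than siNS with Dex, 1.37-fold for PRMT5 (adjusted p = 0.00526) and 1.42-fold for HP1γ (adjusted p = 0.00449), and share the siNS Dex libraries. Without siHP1γ Dex replicate 1 the HP1γ difference was 0.35 on the log2 scale (adjusted p = 0.0464), against 0.50 with it. Without Dex, siHP1γ and siNS cells overlapped (29.2 ± 3.36 against 28.95 ± 4.68 CPM, 95% interval of the log2 difference -0.24 to 0.28, adjusted p = 0.929). Dex lowered AHR 1.71-fold in siPRMT5 cells (log2 fold change -0.77, SE 0.119, adjusted p = 2.45e-05). In siNS cells the log2 fold change was -0.39 (adjusted p = 0.0598), and its difference from that in siPRMT5 cells, -0.39 (95% interval -0.75 to -0.03, adjusted p = 0.226), did not pass. In GENCODE 44, 2830 of the 8051 exonic bases of AHR are shared with other gene models, so part of its count is uncertain. These models are not among the symbols counted, and whether their reads entered the AHR count was not tested.

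ARNT, the DNA-binding partner of AHR and of the hypoxia factors, varied less (chr1:150809713-150876708, minus strand). With Dex it was at 45.8, 41.0 and 48.25 CPM in siNS cells, at 33.3, 32.75 and 31.9 CPM in siHP1γ cells and at 32.3, 33.3 and 28.3 CPM in siPRMT5 cells. The libraries of both depletions lay below those of siNS. The level was 72.5% of siNS after HP1γ depletion (log2 fold change -0.46, adjusted p = 0.000271 in edgeR) and 69.6% after PRMT5 depletion (-0.52, adjusted p = 2.86e-05). Without Dex, the differences were -0.18 (95% interval -0.36 to 0.003, adjusted p = 0.128) and -0.21 (-0.40 to -0.03, adjusted p = 0.057). The latter passed in 5 of the 18 fits that left out 1 library (siNS Eth replicate 2, siNS Dex replicate 2, siHP1γ Dex replicate 1, siPRMT5 Eth replicate 3 or siPRMT5 Dex replicate 3, with an adjusted p of 0.024 to 0.188 over all 18) and with at least 10 counts required in every library (0.0453). No Dex response of ARNT was called, with log2 fold changes of 0.21 in siNS, -0.07 in siHP1γ and -0.10 in siPRMT5 cells.

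TIPARP, which encodes the mono-ADP-ribosyltransferase PARP7, was lower after PRMT5 depletion and rose with Dex (chr3:156673235-156706770, plus strand). In siNS cells it was at 182, 156 and 174 CPM with Eth and at 214, 213 and 226 CPM with Dex. PRMT5-depleted cells had 102, 105 and 107 CPM with Eth, the lowest values of all libraries, and 186, 229 and 204 CPM with Dex. TIPARP was at 61.4% of siNS after PRMT5 depletion without Dex (log2 fold change -0.70, SE 0.0896, adjusted p = 5.44e-07 in edgeR), and the siPRMT5 and siNS libraries overlapped with Dex (-0.08, 95% interval -0.25 to 0.10, adjusted p = 0.515). The rise with Dex was 1.97-fold in siPRMT5 cells (log2 fold change 0.98, SE 0.0893, adjusted p = 4.12e-09) and 1.28-fold in siNS cells (0.35, standard error 0.0871, adjusted p = 0.00885), the latter under the fold limit of 1.5. The test of the difference itself passed for TIPARP (0.63, standard error 0.124, adjusted p = 0.00416).

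In siHP1γ cells TIPARP was lower than in siNS cells with either treatment. It was at 128, 141 and 143 CPM with Eth (80.7% of siNS, adjusted p = 0.00878) and at 188, 168 and 143 CPM with Dex (76.5% of siNS, adjusted p = 0.00179). Its Dex response there, 0.27 on the log2 scale (adjusted p = 0.0689), did not pass, and the libraries with Eth and Dex met at 143 CPM. TIPARP overlaps 1 antisense gene, with which it shares no exonic base.

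AHRR, which encodes the AHR repressor, was near the lower end of what could be tested, with 26 to 51 counts per library (chr5:321714-438291, plus strand). Its means lay between 3.12 ± 0.488 CPM in siNS Eth and 4.15 ± 0.348 CPM in siNS Dex. No comparison passed for AHRR (adjusted p of 0.222 to 0.753). The 95% interval of its log2 difference after PRMT5 depletion without Dex was -0.32 to 0.55, and changes within it could not be told from 0 at this depth. In GENCODE 44, 5561 of its 9480 exonic bases are shared with the read-through gene PDCD6-AHRR, which is not among the symbols counted.

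NQO1 encodes a quinone reductase that is controlled by AHR and by NFE2L2 (NRF2), and its mRNA was at 1944 to 3130 counts per library (chr16:69706996-69726668, minus strand). In siPRMT5 cells it was at 305, 283 and 299.5 CPM with Eth and at 230, 227 and 220 CPM with Dex. These are the highest and the lowest values of the 6 conditions, and they did not overlap. NQO1 fell by 0.39 on the log2 scale with Dex in siPRMT5 cells (standard error 0.0588, adjusted p = 1.81e-05 in edgeR), which is 1.31-fold and under the limit of 1.5. In siNS cells, 270.4 ± 4.83 CPM with Eth stood against 245.5 ± 6.72 CPM with Dex (log2 fold change -0.14, adjusted p = 0.153). The difference between these responses was -0.25 (95% interval -0.42 to -0.08, adjusted p = 0.0889, and 0.0345 with DESeq2), and no comparison of NQO1 with siNS passed in edgeR (adjusted p of 0.0786 to 0.798).

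**Figure D2:**
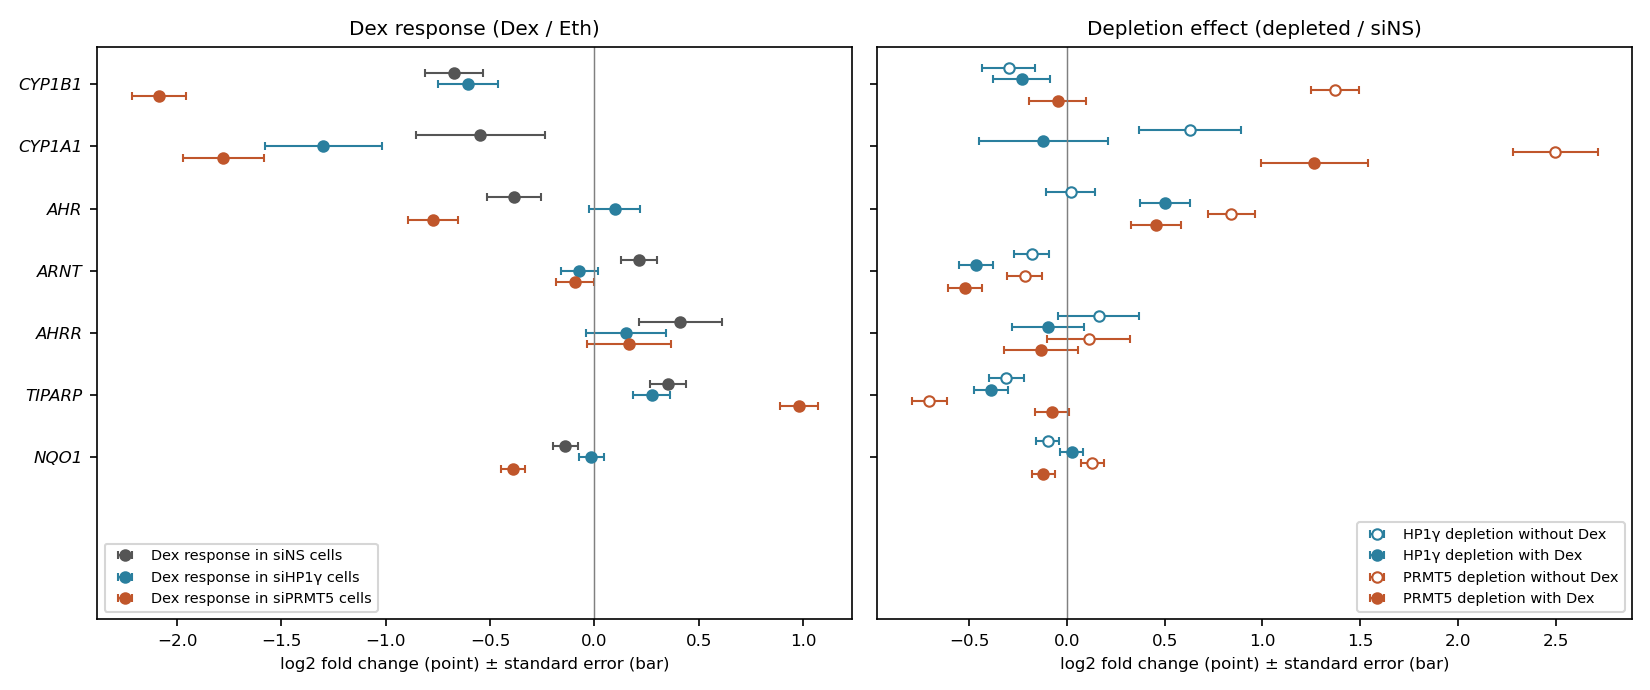
Log2 fold changes (x axis, point, with the standard error as bar) of the 7 genes (y axis) from the fit of 18 libraries, for the Dex response in siNS, siHP1γ and siPRMT5 cells (left) and for each depletion against siNS, open without and filled with Dex (right). In siPRMT5 cells CYP1B1 (-2.09) and CYP1A1 (-1.78) have the largest falls with Dex of the 7 genes, and TIPARP (0.98) the largest rise. CYP1B1 was chosen for its difference between siPRMT5 and siNS cells.

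Counted over the 6 members other than CYP1B1, 3 passed after PRMT5 depletion without Dex (AHR and CYP1A1 higher, TIPARP lower), where 42.1% of all genes tested passed (20.6% higher, 21.6% lower), and 3 passed with Dex (AHR and CYP1A1 higher, ARNT lower; 42.4% of all genes, 20.6% higher and 21.9% lower). After HP1γ depletion, 1 passed without Dex (TIPARP lower; 31.8% of all genes, 16.5% higher and 15.2% lower) and 3 with Dex (AHR higher, ARNT and TIPARP lower; 24% of all genes, 11.7% higher and 12.3% lower). With so large a background, the depletion counts are not a result about the pathway as a group. In siPRMT5 cells Dex changed 3 of the 6 by the called limits, TIPARP higher and AHR and CYP1A1 lower. Of all genes 5.44% were called there (2.69% higher, 2.75% lower). In siHP1γ cells Dex changed 2 of 7, CYP1B1 and CYP1A1, both lower (1.67% of all genes, 1.01% higher and 0.66% lower). In siNS cells it changed 0 of 6 (2.71% of all genes, 1.65% higher and 1.06% lower), and DESeq2 also called 0. There, 5 of the 6 had an unadjusted p under 0.05 in edgeR. The share of all genes at that unadjusted limit was not counted, so this count is not a result about the members. The difference of the Dex response from siNS cells passed for 1 of 6 with siPRMT5, TIPARP. Of all genes 3.8% passed there (1.58% higher, 2.23% lower). With siHP1γ it passed for 0 of 6 (0.399% of all genes, 0.118% higher and 0.281% lower), and DESeq2 also called 0. Here 2 of the 6 had an unadjusted p under 0.05 in edgeR, again without a count over all genes.

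Since CYP1A1 and AHR rose together and TIPARP fell in siPRMT5 Eth, the DNA before the start of these genes is shown for reference. The sequences are from RefSeq (GRCh38.p14), of which the table used here matched 6 of the 7 genes (the promoter of CYP1B1 was not analysed here), and are the 250 bases before the annotated start, 5′ to 3′ on the strand of the gene, with the XRE core in capitals (GCGTG on either strand, so CACGC on the other). They are chr15:74725529-74725778 (minus strand) for CYP1A1, chr3:156674340-156674589 (plus strand) for the first of 3 starts of TIPARP and chr7:17298402-17298651 (plus strand) for AHR.
CYP1A1: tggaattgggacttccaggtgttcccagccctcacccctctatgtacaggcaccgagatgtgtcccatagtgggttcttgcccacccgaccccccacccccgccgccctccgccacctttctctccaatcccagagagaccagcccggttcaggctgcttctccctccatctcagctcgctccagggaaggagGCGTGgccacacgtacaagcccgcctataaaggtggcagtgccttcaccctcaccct
TIPARP: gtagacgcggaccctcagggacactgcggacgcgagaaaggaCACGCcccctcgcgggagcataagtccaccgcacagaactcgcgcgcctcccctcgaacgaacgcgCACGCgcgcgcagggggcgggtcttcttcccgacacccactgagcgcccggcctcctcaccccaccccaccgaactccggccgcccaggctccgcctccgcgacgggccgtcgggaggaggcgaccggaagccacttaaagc
AHR: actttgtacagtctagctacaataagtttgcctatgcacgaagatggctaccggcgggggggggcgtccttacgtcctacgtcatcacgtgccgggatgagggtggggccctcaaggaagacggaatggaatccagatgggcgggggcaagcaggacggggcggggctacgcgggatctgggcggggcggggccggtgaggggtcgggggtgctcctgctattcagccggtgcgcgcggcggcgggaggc
The CYP1A1 window held 1 XRE core, 57 bases before the start, and the TIPARP window shown held 2, 208 and 142 bases before it. The other 2 windows of TIPARP held 0. The AHR, ARNT and NQO1 windows held 0 matches, and the 2 windows of AHRR held 1 and 2. Of all 35116 promoter windows of this length, 32.2% held the core. The longer form TNGCGTG, which contains the core, was found in 4.52% of windows and, among the members, only in the first AHRR window. The GR element's hexamer AGAACA (or TGTTCT), found in 12.4% of windows, was in none of the members' windows. A match is a stretch of letters and not evidence of binding, and distal elements lie outside these windows.

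The other genes of the pathway were taken from 7 lists with 83 genes in all, of which 61 could be tested. The lists were set up by function, with results of these data known, and their counts are read against those of all genes. Among receptor chaperones and AHR turnover factors, 4 of 7 passed after PRMT5 depletion without Dex, 2 higher and 2 lower (57.1% against 42.1% of all genes, median log2 fold change -0.10 against 0.00). CUL4B, a ubiquitin ligase scaffold, rose from 209 to 244 CPM (log2 fold change 0.23, adjusted p = 0.0231 in edgeR). CDC37, a kinase cochaperone of HSP90, fell from 269 to 163 CPM (-0.72, adjusted p = 6.34e-05) and HSP90AA1 from 7899 to 5460 CPM (-0.53, adjusted p = 1.43e-07). After HP1γ depletion without Dex, 2 of the 7 passed, both lower (28.6% of the list). This share was no higher than the 31.8% of all genes that passed in either direction. It was above the 15.2% of all genes that were lower, but rests on 2 genes. PTGES3, which encodes p23, fell from 318 to 107 CPM (-1.57, adjusted p = 7.36e-12), and HSP90AA1 was at 5360 CPM (-0.56, adjusted p = 1.9e-07). With Dex, the log2 fold changes of the 7 ranged from -0.30 (HSP90AA1) to 0.21 (STUB1) in siNS cells and from -0.17 (CDC37) to 0.40 (CUL4B) in siPRMT5 cells, all under the limit of 1.5-fold.

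Of 20 further AHR target genes, 12 could be tested. CYP1A2, ALDH3A1, GSTA1 and GSTA2, classical xenobiotic targets, had at most 2 counts in any library. After PRMT5 depletion without Dex, 7 of the 12 passed, 3 higher and 4 lower (58.3% against 42.1% of all genes), and with Dex 10 of 12, 5 higher and 5 lower (83.3% against 42.4%). NEDD9, a scaffold protein of focal adhesions, rose from 0.592 to 2.09 CPM without Dex (log2 fold change 1.79, adjusted p = 0.000151 in edgeR). SLC7A5, a subunit of the amino acid transporter LAT1, fell from 217 to 55.6 CPM (-1.97, adjusted p = 2.34e-16), and MMP1, a collagenase, from 22.95 to 7.11 CPM (-1.69, adjusted p = 1.23e-11). The rise of CYP1A1 was thus not shared by all targets on this list, which changed in both directions. Dex in siNS cells changed 3 of the 12 (25% against 2.71% of all genes). NEDD9 rose to 1.70 CPM (1.48, adjusted p = 0.00634), and MMP1 (-1.19) and IL1B (-0.81), targets also of inflammatory signalling, fell. In siPRMT5 cells, NEDD9 rose 7.38-fold with Dex (2.09 to 15.5 CPM, adjusted p = 4.46e-12) and AREG, an EGF receptor ligand, 3.04-fold (8.25 to 25.2 CPM, adjusted p = 7.04e-11). For NEDD9, the difference from the Dex response in siNS cells (1.405 on the log2 scale) did not pass. Its siNS Eth libraries held only 3 to 10 counts. In siHP1γ cells Dex lowered 4 of the 12 (33.3%, against 0.66% of all genes called lower), IL24 and MMP1 the most (3.37 to 0.964 and 22.7 to 10.2 CPM).

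**Figure D3:**
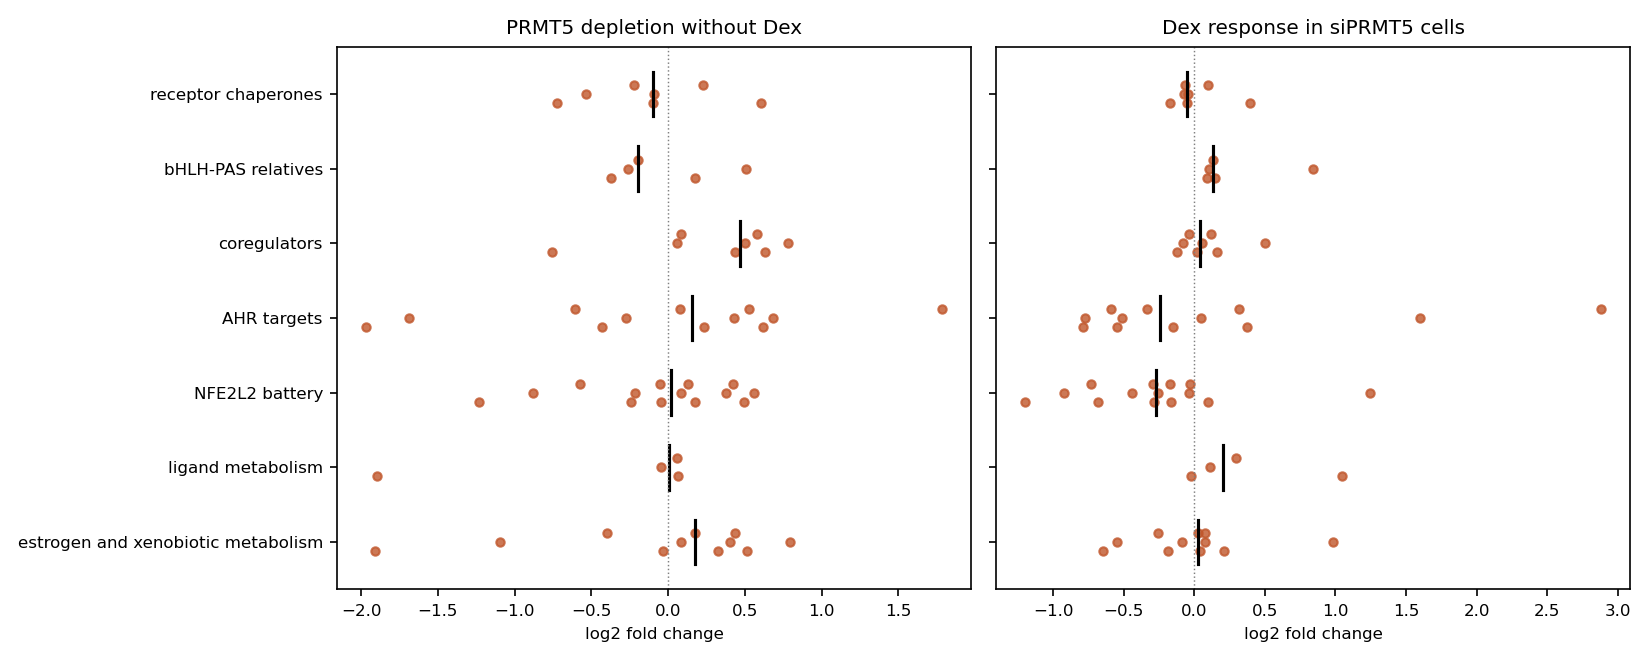
Log2 fold changes (x axis) of the tested genes of each pathway list (y axis) after PRMT5 depletion without Dex (left) and with Dex in siPRMT5 cells (right). Each point is 1 gene, the black line is the list median and the dotted line the median of all genes tested. AHR targets spread in both directions, from -1.97 to 1.79 after PRMT5 depletion.

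NFE2L2, its inhibitor KEAP1 and other antioxidant genes of the NFE2L2 group changed in both directions. After PRMT5 depletion without Dex, 8 of 14 passed, 4 higher and 4 lower (57.1% of the list against 42.1% of all genes, 20.6% higher and 21.6% lower), with SLC7A11, the cystine transporter, at 90.8 against 213 CPM (-1.23, adjusted p = 1.65e-08 in edgeR). Dex in siPRMT5 cells changed 5 of 14 (35.7% against 5.44% of all genes). GCLC, the catalytic subunit of the enzyme that limits glutathione synthesis, rose from 84.4 to 200.3 CPM (1.25, adjusted p = 1.64e-12), whereas HMOX1, the heme oxygenase, fell from 47.15 to 20.5 CPM (-1.20, adjusted p = 5.23e-09) and ABCC2, an export pump, from 10.1 to 5.28 CPM (-0.92, adjusted p = 0.000195). HMOX1 also fell in siNS cells (44.4 to 26.5 CPM, -0.75, adjusted p = 1.65e-05) and in siHP1γ cells (67.5 to 36.2 CPM, -0.90, adjusted p = 5.69e-07).

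Of the coregulators of AHR, 6 of 8 passed after PRMT5 depletion without Dex (5 higher, 1 lower; 75% against 42.1% of all genes). After HP1γ depletion without Dex 7 of 8 passed, all higher (87.5% against 31.8% of all genes, of which 16.5% higher), with a list median of 0.51 against 0.01. NCOA3 rose from 90.4 to 155 CPM and NCOA1 from 65.7 to 102 CPM with siPRMT5, and EP300 from 79.1 to 126 CPM with siHP1γ. With Dex, the log2 fold changes of the 8 were at most 0.51 in siNS and 0.50 in siPRMT5 cells (both NCOA3), all under the limit of 1.5-fold. Of the bHLH-PAS relatives, EPAS1 (HIF-2α), which also pairs with ARNT, rose with Dex from 29.1 to 45.1 CPM in siNS cells (0.63, adjusted p = 3.49e-05) and from 32.8 to 59.0 CPM in siPRMT5 cells (0.84, adjusted p = 1.61e-07). After PRMT5 depletion without Dex, 2 of the 5 relatives tested passed, 1 higher and 1 lower (40% against 42.1% of all genes). HIF1A was higher (993 against 699.7 CPM, adjusted p = 6.23e-06 in edgeR) and NPAS2 lower (97.1 against 125.9 CPM, adjusted p = 0.000628). Of the 10 genes of kynurenine metabolism, which yields endogenous AHR ligands, 4 could be tested, and IDO1, IDO2 and TDO2, the enzymes of its first step, had 0 counts in all 18 libraries. KYNU, which breaks kynurenine down, fell from 0.695 to 0.184 CPM after PRMT5 depletion without Dex (adjusted p = 0.0342 in edgeR), at levels of few counts. KYNU was the only 1 of the 4 that passed there (25% against 42.1% of all genes). Among the partners of CYP1B1 in estrogen and xenobiotic metabolism, 7 of 11 passed after PRMT5 depletion without Dex (63.6% against 42.1% of all genes). POR, the electron donor of microsomal P450 enzymes, rose from 23.2 to 33.25 CPM (0.51, adjusted p = 0.000755), and EPHX1, the microsomal epoxide hydrolase, from 10.3 to 17.8 CPM (0.79, adjusted p = 2.75e-05). CYP2S1 fell from 7.59 to 2.03 CPM (-1.91, adjusted p = 7.57e-08).

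Likeness to CYP1B1 was ranked by Pearson correlation over the 18 libraries, among 11411 genes whose mean level reached 5 CPM. The 5 genes at the top were NET1, ADAMTS12, LPXN, TNFRSF10B and IRF2BPL. Their Pearson correlations with CYP1B1 on log2 CPM were 0.944, 0.936, 0.918, 0.917 and 0.916, and the Spearman correlations were 0.785 to 0.851. By Spearman correlation their ranks were between 20.5 (IRF2BPL) and 76 (TNFRSF10B), so other genes were more like CYP1B1 by that measure. The 18 libraries fall into 6 conditions that all genes share, so the correlations are given as a description. All 5 had their highest mean in siPRMT5 Eth, for example LPXN at 42.2 ± 1.22 CPM against 24.5 ± 1.66 CPM in siNS Eth and 19.1 ± 0.65 CPM in siPRMT5 Dex. Among the members, NQO1 (0.852), CYP1A1 (0.823) and AHR (0.814) had positive correlations with CYP1B1, TIPARP (-0.754) and AHRR (-0.437) had negative ones, and that of ARNT was -0.05. Their Spearman correlations were 0.80 for NQO1, lower for CYP1A1 (0.554) and AHR (0.484), and 0.218 for ARNT. They were -0.61 for TIPARP and -0.587 for AHRR.

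**Figure D4:**
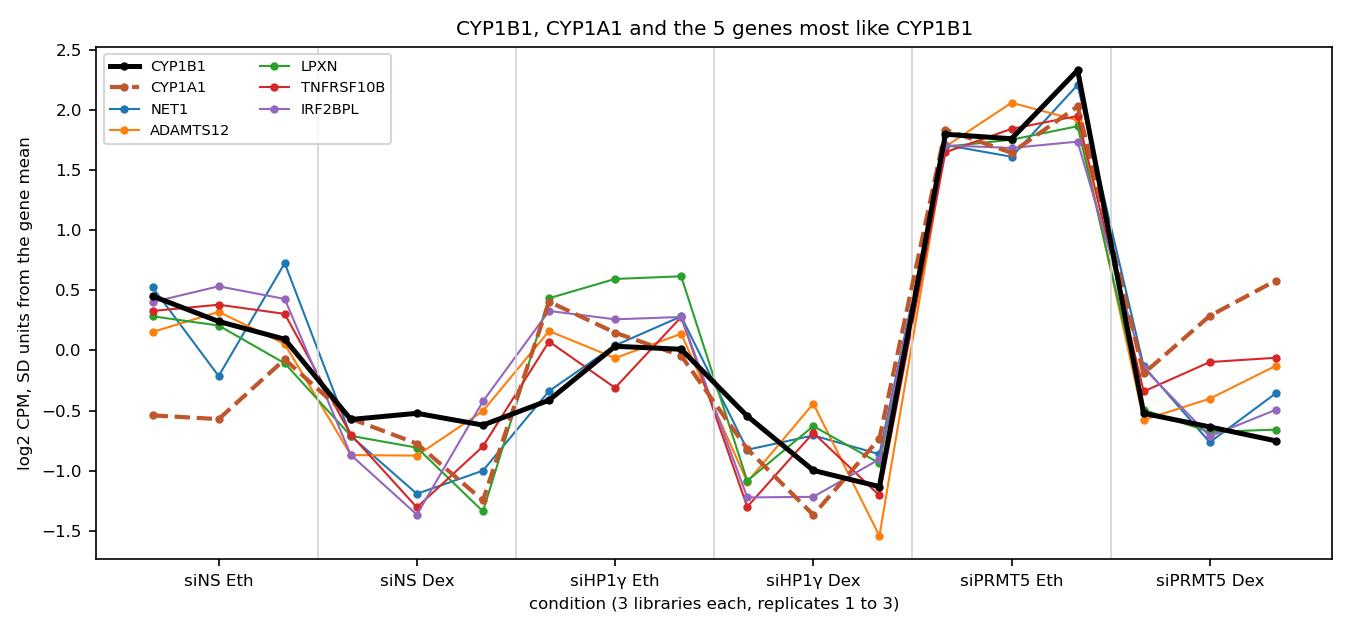
Log2 CPM of CYP1B1 (black), CYP1A1 (dashed) and the 5 genes most like CYP1B1 by Pearson correlation. Values are in SD units from the mean of each gene (y axis), in the 18 libraries by condition (x axis). Lines only help to follow a gene, since replicates have no order. All 7 genes peak in the 3 libraries of siPRMT5 Eth.

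The mRNA of GR itself (NR3C1) was at 167 ± 17.9 CPM in siPRMT5 Eth and 158 ± 16.01 CPM in siPRMT5 Dex, against 148 ± 10.0 and 127 ± 4.61 CPM in siNS cells. NR3C1 was higher in siPRMT5 than in siNS cells with Dex (log2 fold change 0.31, adjusted p = 0.0062 in edgeR), and its libraries overlapped without Dex (0.18, adjusted p = 0.121) and between Eth and Dex in siPRMT5 cells (-0.08, adjusted p = 0.635). PRMT5 mRNA was higher with Dex than with Eth in siPRMT5 cells (0.52, adjusted p = 0.00634), and its part in the Dex responses there was not tested. The levels are those of mRNA, and neither AHR protein nor its activity was measured here.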

How the data were processed

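The data are 18 RNA-seq libraries of MDA-MB-231 cells. According to the methods and the submitters' processing notes, the authors prepared the libraries with Lexogen kits, mapped reads on hg38 with Bowtie2 (2.4.2) and counted them with HTSeq (0.9.1). The authors deposited whole-number counts for 60642 gene symbols, without normalization. Strand setting and annotation are not given in the sources used here. Bowtie2 aligns without splicing, which can lose reads that span an exon junction. A table of the authors' own DESeq2 (2.11.40.7) comparisons, with fold changes and p-values, was not used.

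Groups were taken from the sample titles. Genes were kept with edgeR's filterByExpr (15298 genes), scaled by TMM, and tested with the quasi-likelihood F-test of edgeR 4.0.16 (R 4.3.3) in one fit of 6 condition means with 12 residual degrees of freedom. Standard errors were taken as the log2 change over the square root of F. The exact permutation test planned for genes removed by the filter was not needed, since all 7 members were kept. The scripts were tested on simulated counts with known changes. DESeq2 1.42.0 served as an alternative. Same-numbered replicates did not deviate together (correlations of -0.09 to 0.17), so they were not paired.

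The members and the lists were chosen with earlier results of these data known. Genes of the lists are named by rule: the 2 largest increases and decreases among called genes of a comparison, of which examples are given, and some are not reported here. The genes listed for counts of 0 to 2, and CYP1B1-AS1, RMDN2 and NR3C1, were named after their values were seen. Coordinates and overlaps are from GENCODE 44 on hg38.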

Additional observations from a re-analysis of the deposited data

Results flagged for a closer look

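In 6 genes, the Dex response in siPRMT5 cells differed from that in siNS cells by the edgeR test of the difference itself. The difference was 0.63 on the log2 scale for TIPARP (adjusted p = 0.00416), 0.43 for CUL4B (0.0258), 1.04 for AREG (0.00144), 0.68 for MMP1 (0.0305) and 0.71 for GCLC (0.000393). MMP1 was at 7.11 CPM with Eth and 4.99 CPM with Dex in siPRMT5 cells, under the limit of 1.5-fold, and fell from 22.95 to 10.04 CPM in siNS cells. For NQO2, a quinone reductase related to NQO1, it was -0.67 (0.0191). The genes come from the members other than CYP1B1 and from the pathway lists, of which 61 genes could be tested, and 3.8% of all genes tested passed in this comparison. The cause of these differences was not tested.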

How the results depend on the processing

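With a fold limit of 2, Dex responses numbered 194 genes in siNS (414 at 1.5-fold), 106 in siHP1γ (255) and 373 in siPRMT5 cells (832), and 1 member (CYP1A1) was called in both siHP1γ and siPRMT5 cells. The fall of CYP1B1 with Dex in siHP1γ cells lost its call with library size only (-0.59, adjusted p = 0.0107), with the replicate block (-0.61, 0.0129) and with the libraries of the contrast alone (-0.60, 0.0235), leaving 1 member called in each; over leave-one-out fits it ranged from -0.77 to -0.51 and the members called from 0 to 2. With library size only, 2 members passed after HP1γ depletion without Dex. The difference of the Dex response between siPRMT5 and siNS passed for 2 members with no filter and for 3 with DESeq2, and leaving out 1 library gave 1 to 2 members and 319 (without siNS Eth replicate 1) to 897 genes (without siHP1γ Dex replicate 1). That between siHP1γ and siNS was called for 374 genes with no filter, 298 with DESeq2, 94 with the replicate block and 61 in the main setting, and for 20 (without siNS Eth replicate 1) to 186 genes (without siNS Eth replicate 2). The difference for CYP1B1 ranged from -1.49 to -1.245. After PRMT5 depletion without Dex, leaving out 1 library gave 3 to 4 members. The sources used here do not state whether same-numbered replicates were prepared together. The replicate block changed no other call of a member.

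With library size only, the genes that passed after HP1γ depletion split into 2848 higher and 1269 lower with Dex (1787 and 1882 with TMM) and into 3198 and 1814 without Dex (2531 and 2329). Values near 0 changed sign without 1 library. The ranges were -0.0536 to 0.206 for AHR, -0.00536 to 0.26 for AHRR and -0.0466 to 0.00676 for NQO1 (Dex in siHP1γ cells), -0.158 to 0.00696 for AHRR and -0.333 to 0.0927 for CYP1A1 (HP1γ depletion with Dex), -0.0752 to 0.146 for AHR (HP1γ depletion without Dex), -0.156 to 0.00271 for TIPARP (PRMT5 depletion with Dex) and -0.17 to 0.0255 for TIPARP (Dex response, siHP1γ against siNS). Counts of 10 to 148 for CYP1A1 and 26 to 51 for AHRR limit what could be detected for them. The causes of these changes were not tested.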
